A study of Homo sapiens with 4 samples.

Results

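The protein arginine methyltransferases (PRMTs) are a family of 9 enzymes, and the transcripts of all 9 were followed here in AGS, a cell line from an adenocarcinoma of the human stomach, after knockout of 1 of them, PRMT6. The members were PRMT1, PRMT2, PRMT3, CARM1 (also called PRMT4), PRMT5, PRMT6, PRMT7, PRMT8 and PRMT9, chosen by name from the 19775 genes that the arrays measured. Together they were read by 19 probe sets, and the brightest probe set (by its mean on all arrays) stood for each gene. PRMT6-knockout cells (2 arrays) were compared with control cells carrying wild-type PRMT6 (2 arrays), both AGS cells grown in the same medium. The knockout was made with 1 guide RNA in a lentiviral Cas9 vector, puromycin selection and limiting dilution, and clones were isolated. The labels do not say which clone each array came from, nor whether the control cells carried a vector or were cloned. Nothing in the labels says that the 2 arrays of a group came from separate cultures, so p-values measure the spread between these arrays, which may be technical.

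PRMTs transfer methyl groups from S-adenosylmethionine to the side chain of arginine in histones, RNA-binding proteins and signalling proteins. Type I enzymes (PRMT1, PRMT2, PRMT3, CARM1, PRMT6 and PRMT8) end with asymmetric dimethylarginine, type II enzymes (PRMT5 and PRMT9) with symmetric dimethylarginine, and the type III enzyme PRMT7 stops at monomethylarginine. PRMT6 is a nuclear enzyme known for the asymmetric mark on arginine 2 of histone H3, a mark that opposes the trimethylation of the neighbouring lysine 4. Several members can act on the same arginines, and the level of each enzyme's transcript in PRMT6-knockout cells is the question addressed here.

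The guide is shown because it defines the knockout. Its 10 bases at the 3′ end, where Cas9 guides tolerate mismatches least, are in capitals.
PRMT6 guide: gacggtactgGACGTGGGCG
The guide is 20 bases long with 70.0% G and C. It had no exact match on either strand in the 300 bases around the PRMT6 start site listed by RefSeq, nor in any of the 35116 promoter windows of that table. The position of its target in the gene and the edits it left were not analysed here.

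The values are the authors' log2 intensities, on which a difference of 1 is a 2-fold difference, and levels of members are not compared with each other because probes differ in brightness. For the same reason the place of a cell type marker above or below the median gene is only a rough description. Array medians lay at 5.01 to 5.02, and the correlation across probe sets (Pearson's r) was 0.996 between the knockout arrays, 0.995 between the control arrays and 0.981 to 0.984 between groups. Differences are knockout minus control with the standard error (SE) of limma, which pools the spread over genes, and called genes had an adjusted p (Benjamini-Hochberg over all 19775 genes) below 0.05. Of the 10 epithelial markers examined, 7 lay above the median gene in both groups, among them KRT8, KRT18 and EPCAM. Of the gastric mucus and surface markers TFF1 and MUC1 lay above it, while TFF2, MUC5AC and GKN1 lay below it. TFF1 averaged 6.39 in knockout cells, against 9.76 in control cells (adjusted p = 0.00054 in limma). Of 7 fibroblast markers 1 (COL1A1) and of 4 leukocyte markers 1 (LYZ) lay above it in both groups, and PECAM1 of 3 endothelial and HBB of 2 erythroid markers stood at 6.01 and 5.99 in knockout cells, against 5.89 and 5.74 in control cells, with the median gene at 5.97. COL1A1 averaged 10.13 in knockout cells, against 8.58 in control cells (adjusted p = 0.00061 in limma), and its part in the results was not tested. With 2 arrays against 2 an exact permutation test cannot go below p = 0.333 (two-sided), so calls rest on limma alone.

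Of the 9 members, PRMT2 and PRMT7 rose in knockout cells, PRMT6 itself fell, and the other 6 did not pass the test. All 3 changes were smaller than 1.5-fold. The 3 calls make 33.3% of the family, and 24.0% of all genes were called. The arrays of the 2 groups lay apart for 5 members, 4 higher and 1 lower in knockout cells, and for 58.2% of all genes (29.1% higher and 29.1% lower). Both counts are near the background, so they give no result about the family as a whole. The median difference of the 9 members was 0.23, against -0.01 over all genes. Of the 9 differences 8 lay above 0, as did those of 9583 of all 19775 genes, and no test was made of this count. Under scaling to reference genes, which lowers every member by 0.22, the differences of CARM1 (-0.11), PRMT5 (-0.19) and PRMT9 (-0.21) turned negative.

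**Figure D1:**
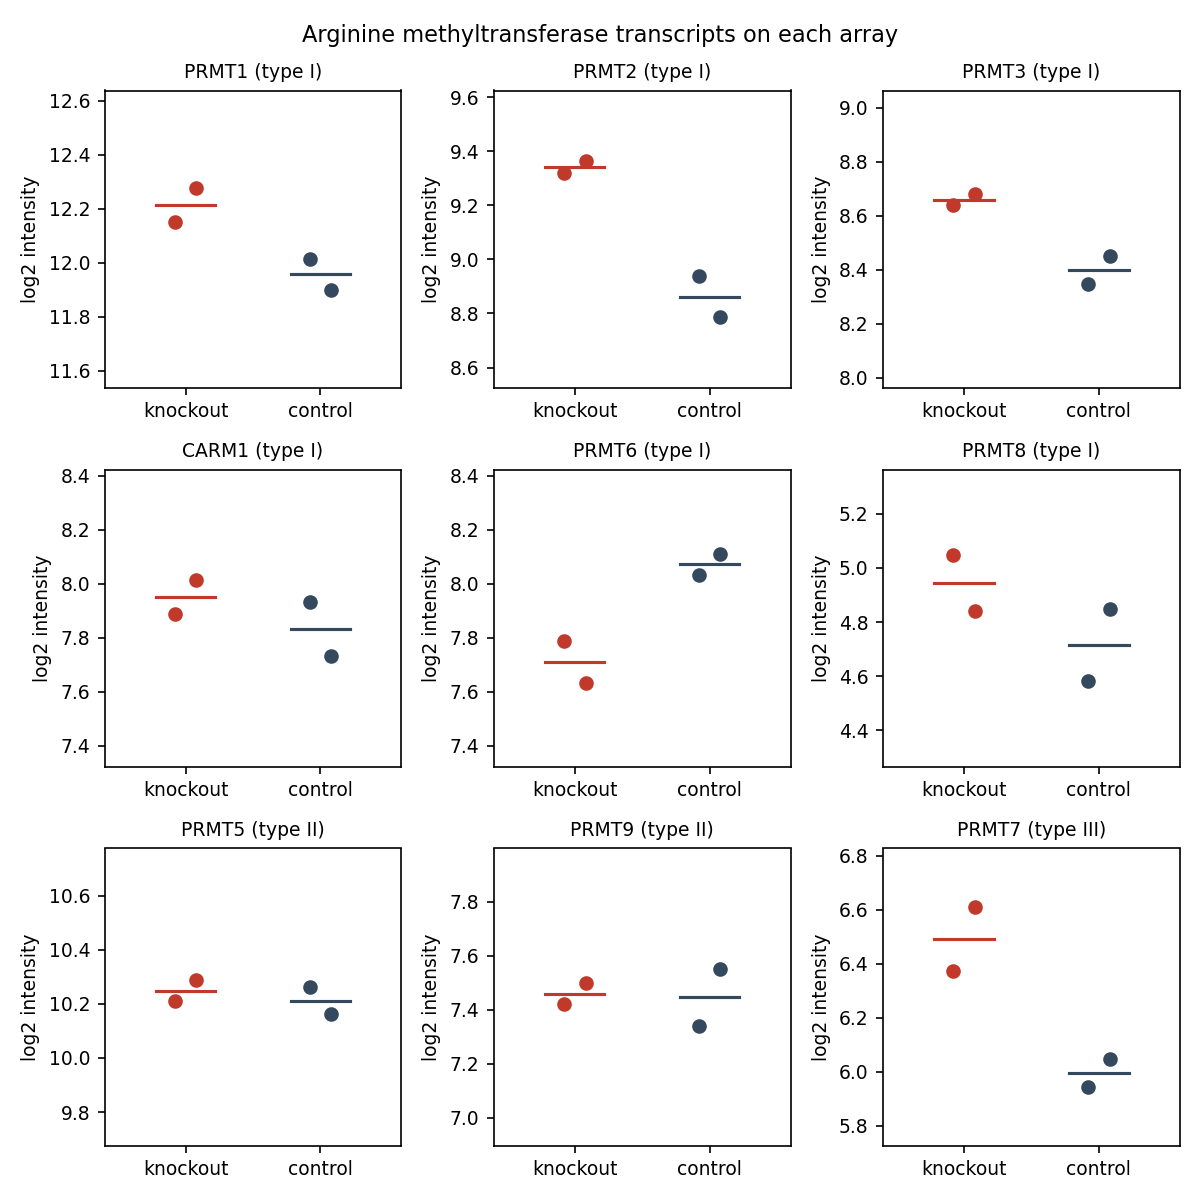
Log2 intensity (vertical axis) of the brightest probe set of each family member on the 2 knockout arrays (red, left) and the 2 control arrays (grey, right) of each panel. Points are arrays, horizontal lines are group means, and every panel spans 1.1 log2 units around its own values. The groups are apart for PRMT1, PRMT2, PRMT3, PRMT6 and PRMT7.

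PRMT6, the targeted gene, was read by 1 probe set, with log2 intensities of 7.79 and 7.63 on the knockout arrays, against 8.03 and 8.11 on the control arrays. Both knockout arrays lay below both control arrays. The difference of -0.36 (SE 0.09) put the intensity at 77.9% of the control level (95% confidence interval 66.3% to 91.4%), with an adjusted p of 0.043 in limma. How much of this intensity was background is not known. An array reads transcript and not protein, and probes that miss the edited part check nothing about the edit. Leaving out any 1 array ended the call (differences of -0.44 to -0.28, adjusted p 0.10 to 0.23), and so did adjustment over all probe sets (adjusted p = 0.085) or over genes with a gene-specific probe set (0.057). Reference gene scaling lowers every gene by 0.22 and put the median gene at -0.23. Under it the PRMT6 difference was -0.58 (adjusted p = 0.0098 in limma), or -0.36 relative to the median gene.

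PRMT2, a type I enzyme with an SH3 domain that acts as a coactivator of nuclear receptors, had log2 intensities of 9.32 and 9.36 on the knockout arrays, against 8.94 and 8.79 on the control arrays. Both knockout arrays lay above both control arrays. The transcript rose by 0.48 (SE 0.09), or 1.39-fold (95% confidence interval 1.19 to 1.63), with an adjusted p of 0.017 in limma. The call held without control 1 (0.56, adjusted p = 0.043) and was lost without control 2 (0.40, 0.072), knockout 1 (0.50, 0.12) or knockout 2 (0.46, 0.14). Reference gene scaling ended it too (0.26, adjusted p = 0.062).

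PRMT2 was read by 7 probe sets, more than any other member, and 6 of the 7 differences lay above 0. The probe set that stands for the gene is of a kind whose probes can match other transcripts. The brightest gene-specific one had 7.91 and 7.81 on the knockout arrays, against 7.61 and 7.63 on the control arrays. Its difference of 0.24 (SE 0.09) was not called (adjusted p = 0.17 over all 54613 probe sets, of which 13.1% were called). The next 2 by brightness gave 0.37 (SE 0.09) and 0.36 (SE 0.12), with both knockout arrays above both control arrays and adjusted p of 0.069 and 0.13. The 3 dimmest, with mean log2 intensities of 4.32, 3.50 and 3.41, gave 0.42, -0.08 and 0.18. The mean of the 7 probe sets gave a rise of 0.28 (adjusted p = 0.048 in limma over the genes). The direction was thus shared by the brighter probe sets, while the size ran from 0.24 to 0.48 among the 4 brightest.

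PRMT7, the monomethylating type III enzyme, had log2 intensities of 6.37 and 6.61 on the knockout arrays, against 5.94 and 6.05 on the control arrays. The groups did not overlap. The transcript rose by 0.49 (SE 0.11), or 1.41-fold (95% confidence interval 1.17 to 1.70), with an adjusted p of 0.028 in limma. It was read by a single gene-specific probe set. The call was lost without any 1 array: 0.61 (adjusted p = 0.077) without knockout 1, 0.38 (0.16) without knockout 2, 0.44 (0.13) without control 1 and 0.55 (0.096) without control 2. Neither reference gene scaling (0.27, adjusted p = 0.095) nor adjustment over all probe sets (0.056) kept it.

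PRMT1 deposits most of the asymmetric dimethylarginine of mammalian cells. Its log2 intensities were 12.15 and 12.28 on the knockout arrays, against 12.02 and 11.90 on the control arrays, so the groups did not overlap. The difference of 0.26 (SE 0.09, 95% confidence interval 0.03 to 0.49) was not called (adjusted p = 0.11 in limma). The probes of this probe set can match other transcripts. The dimmer, gene-specific probe set, with a mean of 5.57, gave 0.03 (SE 0.11), and the mean of both gave 0.14 (adjusted p = 0.30). PRMT3, a cytoplasmic zinc-finger enzyme that methylates a protein of the small ribosomal subunit, had 8.64 and 8.68 on the knockout arrays, against 8.35 and 8.45 on the control arrays. Its groups did not overlap either, and its difference of 0.26 (SE 0.08) was not called (adjusted p = 0.080 in limma). Both genes passed the test when the spread was allowed to follow intensity (adjusted p = 0.013 for PRMT1 and 0.028 for PRMT3) and when the dimmer genes were left out (0.031 and 0.019). Under reference gene scaling they stood at 0.03 and 0.04.

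CARM1, a coactivator that methylates histone H3 and transcription regulators, had 7.89 and 8.01 on the knockout arrays, against 7.93 and 7.73 on the control arrays, and the groups overlapped. The difference was 0.12 (SE 0.10, 95% confidence interval -0.15 to 0.38; adjusted p = 0.51 in limma). PRMT8, a membrane-anchored enzyme known from neurons, was dim, with 5.05 and 4.84 on the knockout arrays, against 4.58 and 4.85 on the control arrays. Its difference of 0.23 (SE 0.13) was not called (adjusted p = 0.28 in limma), and its other probe set, with a mean of 3.34, gave 0.05. No detection calls were used here, so PRMT8 may lie at background on every array.

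The type II enzymes PRMT5 and PRMT9 had the smallest differences of the family on the deposited scale, but not under reference gene scaling (-0.19 and -0.21). PRMT5, which makes most symmetric dimethylarginine, had 10.21 and 10.29 on the knockout arrays, against 10.26 and 10.16 on the control arrays. The difference was 0.04 (SE 0.08), and its 95% confidence interval of -0.17 to 0.25 covers folds of 0.886 to 1.19. All 3 PRMT5 probe sets gave differences of 0.01 to 0.04 with overlapping groups. PRMT9, which methylates a splicing factor, had 7.42 and 7.50 on the knockout arrays, against 7.34 and 7.55 on the control arrays. Its difference was 0.01 (SE 0.10, 95% confidence interval -0.24 to 0.27). Neither passed the test (adjusted p = 0.81 and 0.96 in limma), which does not show that they did not differ.

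**Figure D2:**
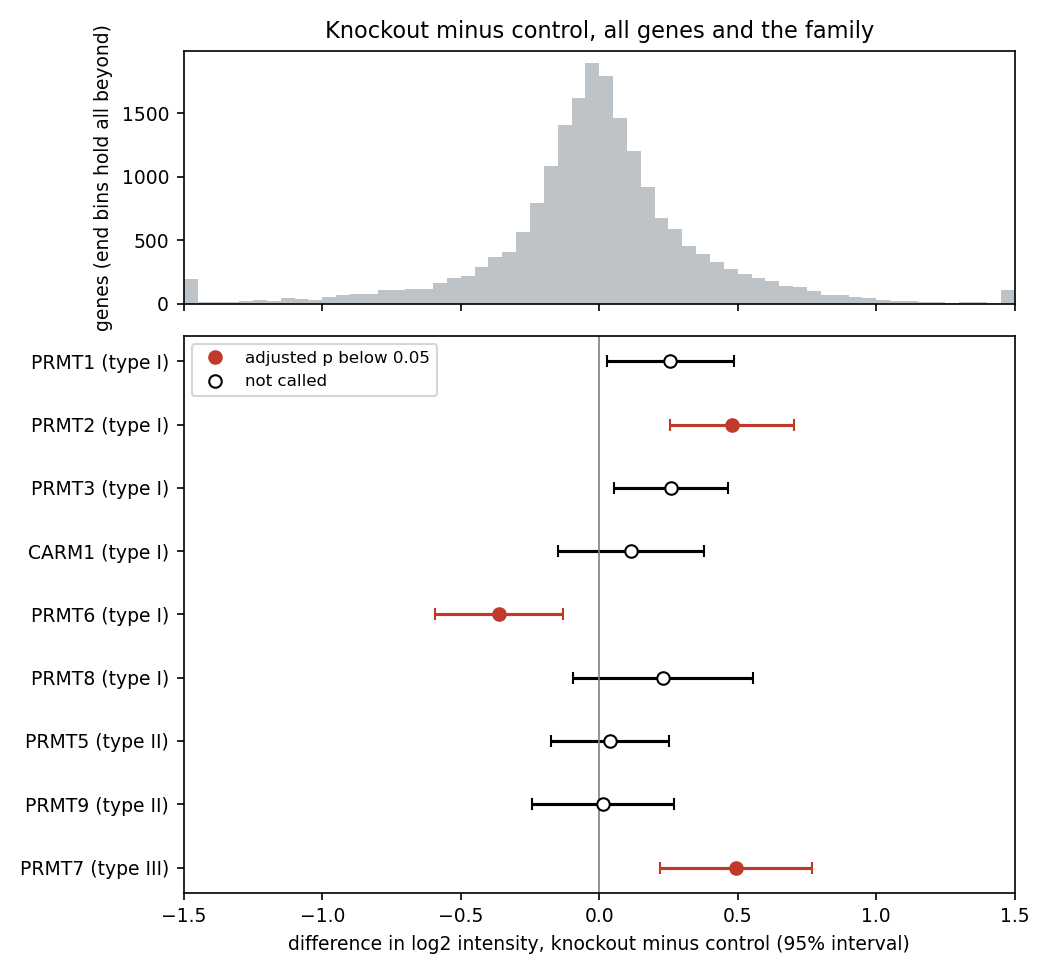
Difference in log2 intensity, knockout minus control (horizontal axis), for all 19775 genes as a histogram (top, with differences beyond 1.5 in either direction placed in the end bins) and for the 9 family members (bottom) with 95% confidence intervals. Red points are called at an adjusted p below 0.05 and open points are not. PRMT6 lies at -0.36 and PRMT2 and PRMT7 at 0.48 and 0.49.

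**Figure D3:**
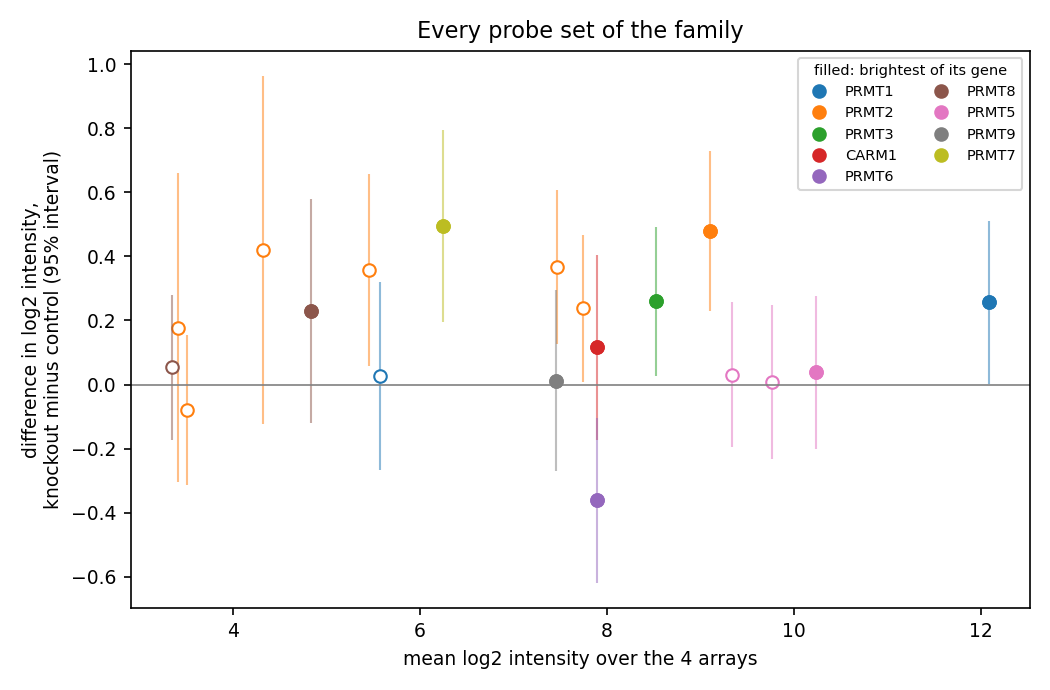
Difference in log2 intensity, knockout minus control, with 95% confidence intervals (vertical axis) against the mean log2 intensity over the 4 arrays (horizontal axis) for the 19 probe sets of the family, coloured by gene. Filled points are the brightest probe set of each gene and open points the others. The difference lay above 0 for 17 of the 19 probe sets, and the 3 PRMT5 probe sets lie closest together. Probe sets of the same gene are not independent of each other.

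The promoters of the called members are shown because PRMT2 and PRMT7 rose and PRMT6 fell. RefSeq's table for GRCh38.p14 held windows for all 9 members (2 each for CARM1, PRMT7 and PRMT8), and the 100 bases before the start site are given for these 3, on the gene's strand. Capitals mark matches on either strand to GGGCGG (the GC box bound by SP1) or GCGCNTGCG (the site of the nuclear respiratory factor NRF1).
PRMT6, chr1:107056574-107056673, + strand: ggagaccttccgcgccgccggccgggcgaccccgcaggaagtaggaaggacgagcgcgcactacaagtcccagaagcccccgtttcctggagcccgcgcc
PRMT2, chr21:46635574-46635673, + strand: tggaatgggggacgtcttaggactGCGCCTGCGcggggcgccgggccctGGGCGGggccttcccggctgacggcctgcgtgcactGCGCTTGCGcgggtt
PRMT7, chr16:68310919-68311018, + strand: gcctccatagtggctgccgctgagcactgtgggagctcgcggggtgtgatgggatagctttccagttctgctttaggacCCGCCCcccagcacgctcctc

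In the whole 300-base windows, from 250 before to 50 after the start, PRMT2 held 3 NRF1 matches and 3 GC boxes that did not overlap, PRMT7 held 2 GC boxes in its first window, and PRMT6 held neither. Of the 35116 windows in the table, 7.47% held an NRF1 match and 45.0% a GC box. PRMT1 and PRMT5 each held 1 match to the YY1 site AAGATGGCG, which 1.75% of windows hold, and 2 and 3 CCAAT boxes (34.6% of windows), a box also found once in PRMT8. None of the members' windows matched TTTGGCGC (E2F), TGACGTCA (CREB and ATF) or TATAAA (the TATA box), which 0.652%, 1.85% and 11.5% of windows hold. CCGGAAG (ETS factors, 10.3% of windows) and CACGTG (the E-box, 7.26%) were found in PRMT3 alone, once each. PRMT2 and PRMT7 therefore shared a GC box and no other searched motif. GC boxes also lay in windows of PRMT1, PRMT3, CARM1, PRMT8 and PRMT9, which were not called, and none lay in that of PRMT5. G and C made up 63.0% of the PRMT6 window, 72.0% of the PRMT2 window and 65.7% of the PRMT7 window, against a median of 58.7% over the table. A match is a description of the letters and was not tested as a binding site.

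The genes whose 4 values were most like those of PRMT6, each gene centred on its own mean, were IL18R1, MAP3K9, HOMEZ, MBTD1 and TNIK. Their root mean square differences from PRMT6 over the 4 arrays were 0.01 on the log2 scale. IL18R1 and HOMEZ were dim, with means of 2.60 and 3.70 in knockout cells, against 2.97 and 4.06 in control cells. MBTD1, a chromatin protein, had 8.88 and 8.72 on the knockout arrays, against 9.11 and 9.21 on the control arrays, and TNIK, a kinase, had 9.17 and 9.04, against 9.42 and 9.50. In all, 194 genes lay within 0.05 of PRMT6 by this measure, so the pattern over 4 arrays does not single out PRMT6. The small fall of the targeted transcript was shared in size by many others: 11.7% of genes had a difference at or below that of PRMT6.

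Around the enzymes, 73 genes of arginine methylation were listed by role and 66 were measured by a probe set naming 1 gene. Of the 66, 19 rose (28.8%) and 6 fell (9.09%), where 12.4% of all genes rose and 11.5% fell. Many list genes were bright, while the share over all genes counts dim ones too. With only the 9887 genes above the median level, 2998 rose and 2569 fell. Dim list genes, such as TDRD1 and GNMT, were left out there too. Of the fewer than 66 list genes that remained, 27 rose and 9 fell. The lists were chosen with earlier results of these data known, so these counts are descriptions. None of the 25 called genes changed sign under any alternative that gave it a value. None of the 25 kept its call with either knockout array left out, 12 kept it without control 1 and 8 without control 2.

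**Figure D4:**
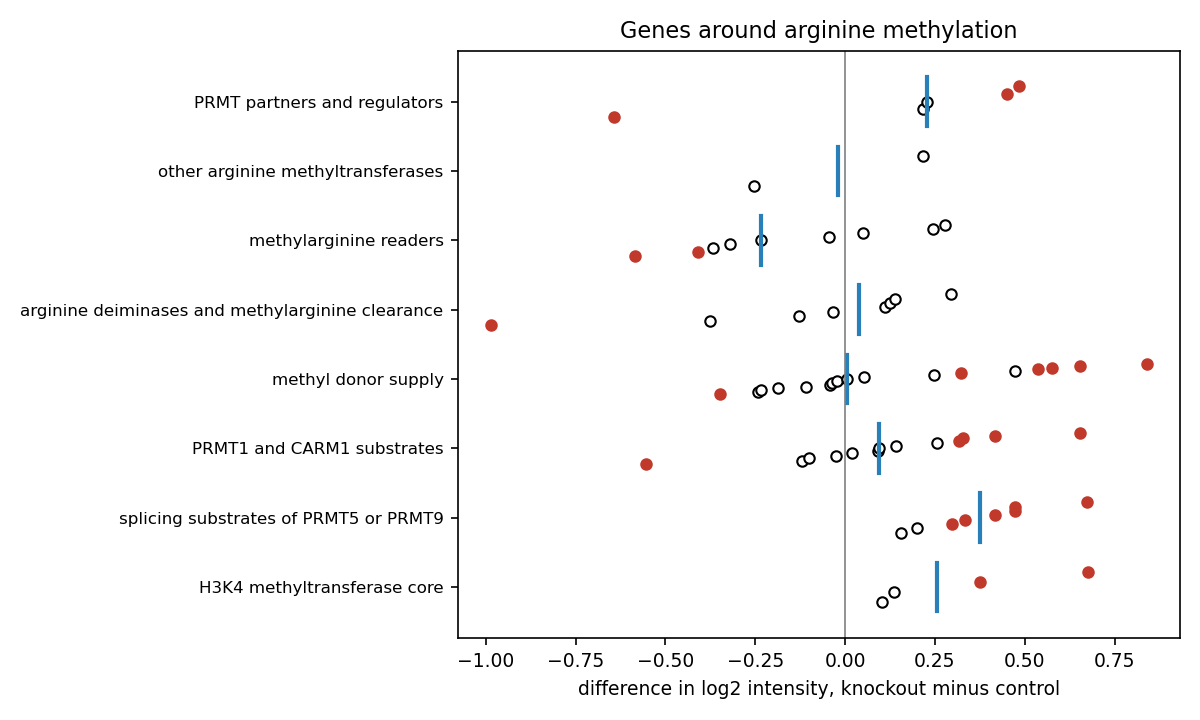
Difference in log2 intensity, knockout minus control (horizontal axis), for the 66 measured genes in 8 lists around arginine methylation (vertical axis). Each point is a gene, red where called at an adjusted p below 0.05 and open where not, and the blue bar is the list median. All 8 measured splicing substrates of PRMT5 or PRMT9 lie to the right of 0, which under reference gene scaling holds for all but SRSF1 and SF3B2.

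Among partners of the enzymes 2 of 5 rose (40.0%) and 1 fell (20.0%), with a median of 0.23. Over all genes 12.4% rose and 11.5% fell. WDR77, the obligate partner of PRMT5 in the methylosome, had 9.11 on each knockout array, against 8.68 and 8.58 on the control arrays. It rose by 0.48 (SE 0.08, adjusted p = 0.012 in limma), while PRMT5 stood at 0.04. COPRS, which directs PRMT5 to histones, rose by 0.45 (SE 0.08, adjusted p = 0.016), with 9.45 and 9.55 on the knockout arrays, against 9.08 and 9.01 on the control arrays. BTG1, an antiproliferative protein that binds PRMT1, had 10.25 and 10.36 on the knockout arrays, against 11.02 and 10.89 on the control arrays. It fell by 0.64 (SE 0.09, adjusted p = 0.0074), and its gene-specific probe set gave -0.76. The PRMT5 adaptors CLNS1A (0.22) and RIOK1 (0.23) did not pass the test. Their groups did not overlap, which held for 58.2% of all genes. WDR77 kept its call under reference gene scaling (0.26, adjusted p = 0.049) and COPRS lost it (0.23, 0.071).

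Of 8 measured substrates of PRMT5 or PRMT9 in the splicing machinery 6 rose and none fell, with a median of 0.38, where 12.4% of all genes rose. The knockout arrays lay above the control arrays for all 8, as they did for 29.1% of all genes. The Sm proteins SNRPB, SNRPD1 and SNRPD3 and their relative LSM4 carry symmetric dimethylarginine in their tails and form the core of spliceosomal ribonucleoproteins. LSM4 had 9.94 and 10.04 on the knockout arrays, against 9.33 and 9.30 on the control arrays, a rise of 0.67 (SE 0.08, adjusted p = 0.0049 in limma). SNRPB rose by 0.47 (SE 0.08), SNRPD3 by 0.47 (SE 0.08) and SNRPD1 by 0.42 (SE 0.08), with adjusted p of 0.015, 0.014 and 0.018. The splicing regulator SRSF1 (0.16) and SF3B2 (0.20), the splicing factor that PRMT9 methylates, did not pass the test. The gene-specific probe set of SRSF1 did pass it (0.60, adjusted p = 0.016 in limma). The mean of the SRSF1 probe sets did not (0.29, adjusted p = 0.084). Under reference gene scaling LSM4 kept its call (0.45, adjusted p = 0.012) and the other 5 called genes of this list lost theirs. The 3 Sm genes stood at 0.19 to 0.25 (adjusted p 0.058 to 0.095), COIL at 0.07 and ZNF326 at 0.11, while SRSF1 (-0.07) and SF3B2 (-0.02) changed sign.

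Of 13 measured substrates of PRMT1 and CARM1 4 rose (30.8%) and 1 fell (7.69%), with a median of 0.09. Over all genes 12.4% rose and 11.5% fell. G3BP1, a stress granule protein with an arginine-rich tail, had 11.09 and 11.11 on the knockout arrays, against 10.45 and 10.44 on the control arrays. It rose by 0.65 (SE 0.07, adjusted p = 0.0041 in limma). FBL, the nucleolar methyltransferase fibrillarin, rose by 0.42 (SE 0.09, adjusted p = 0.024), and nucleolin, NCL, rose by 0.33 (SE 0.08, adjusted p = 0.036). The gene-specific probe set of NCL gave 0.07 (adjusted p = 0.82), and neither call held under reference gene scaling (0.19 and 0.11). EP300, the histone acetyltransferase methylated by CARM1, had 6.88 and 6.91 on the knockout arrays, against 7.37 and 7.54 on the control arrays, and fell by 0.55 (SE 0.09, adjusted p = 0.012). Its relative CREBBP stood at -0.12 and did not pass the test.

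The supply of S-adenosylmethionine and the handling of its products involve 17 measured genes, with a median of 0.01. Of these 5 rose (29.4%) and 1 fell (5.88%), where 12.4% of all genes rose and 11.5% fell. MTAP clears methylthioadenosine, a by-product of polyamine synthesis that inhibits PRMT5. It had 8.77 and 8.81 on the knockout arrays, against 7.96 and 7.94 on the control arrays, a rise of 0.84 (SE 0.08, adjusted p = 0.0023 in limma) or 1.79-fold. The spermidine synthase SRM and the spermine synthase SMS, which both release methylthioadenosine, rose by 0.65 (SE 0.14, adjusted p = 0.026) and 0.58 (SE 0.08, adjusted p = 0.0071). AHCY, which removes the S-adenosylhomocysteine that methyltransferases leave behind, rose by 0.54 (SE 0.08, adjusted p = 0.010). Its homologue AHCYL1 fell by 0.35 (SE 0.08, adjusted p = 0.028). The gene-specific probe set of AHCYL1 gave -0.32 (adjusted p = 0.054). MAT2A, the catalytic subunit that makes S-adenosylmethionine in most tissues, stood at -0.02 and did not pass the test. MAT2B rose by 0.32 (SE 0.08, adjusted p = 0.040 in limma), a call that its gene-specific probe set did not make (0.30, adjusted p = 0.31). Reference gene scaling ended the calls of SRM (0.43, adjusted p = 0.052) and MAT2B (0.10, 0.33), whereas MTAP (0.62), SMS (0.35) and AHCY (0.31) kept theirs.

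Of 9 measured readers of the mark, most with a Tudor domain, 2 fell (22.2%, where 11.5% of all genes fell) and none rose. SND1, which binds symmetric dimethylarginine, had 8.99 and 9.02 on the knockout arrays, against 9.63 and 9.55 on the control arrays, and fell by 0.59 (SE 0.08, adjusted p = 0.0065 in limma). PHF1, a Polycomb-associated protein better known for binding methylated lysine, fell by 0.41 (SE 0.09, adjusted p = 0.030), a call that its averaged probe sets did not make (-0.32, adjusted p = 0.090). Of 8 measured deiminases and clearance genes, 1 fell (12.5%, near the share over all genes) and none rose. It was JMJD6, an oxygenase reported as an arginine demethylase and as a lysyl hydroxylase, with 8.16 and 8.21 on the knockout arrays, against 9.24 and 9.10 on the control arrays. JMJD6 fell by 0.99 (SE 0.09, adjusted p = 0.0023), 1.98-fold and the largest difference of the 66 genes. The peptidylarginine deiminases PADI1 (-0.38), PADI2 (0.14), PADI3 (0.13) and PADI4 (-0.03) and the dimethylarginine hydrolases DDAH1 (0.29) and DDAH2 (0.11) did not pass the test.

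The complexes that methylate lysine 4 of histone H3 share a core of 4 proteins, all measured. Of these WDR5 and DPY30 rose and none fell, where 12.4% of all genes rose and 11.5% fell. WDR5 binds the tail of histone H3, which carries the arginine that PRMT6 methylates. It had 8.51 and 8.59 on the knockout arrays, against 7.97 and 7.78 on the control arrays, a rise of 0.68 (SE 0.10, adjusted p = 0.0080 in limma). Its gene-specific probe set gave 0.51 (adjusted p = 0.054). DPY30 rose by 0.37 (SE 0.08, adjusted p = 0.021), which reference gene scaling ended (0.15, adjusted p = 0.16). RBBP5 (0.10) and ASH2L (0.14) did not pass the test, and the list median was 0.26. Of 2 arginine methyltransferases outside the family, the mitochondrial NDUFAF7 stood at 0.22 and METTL23 at -0.25, and neither passed the test.

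**Figure D5:**
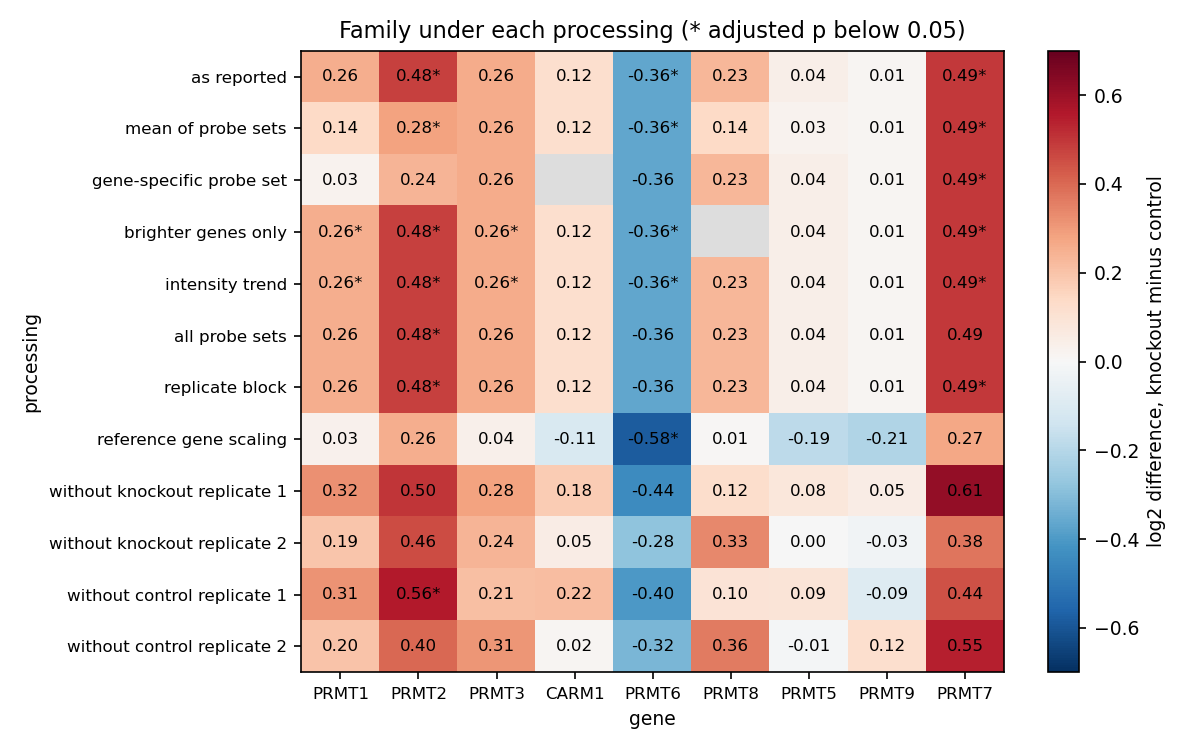
Difference in log2 intensity, knockout minus control (colour and printed value), for the 9 family members (horizontal axis) under the reported processing and each of 11 alternatives (vertical axis). A star marks an adjusted p below 0.05 and grey cells have no value. PRMT6 stays below 0 and PRMT2 and PRMT7 stay above 0 in every row, while their stars come and go.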

How the data were processed

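The authors deposited 1 table of log2 intensities for 54613 probe sets on 4 arrays. Per the submitters' processing notes it was made with RMA (background correction, quantile normalization, summary per probe set) and the affy package, versions not given. After quantile normalization a difference is relative to all other transcripts. Gene names came from the platform's annotation, with symbols updated through Entrez numbers to RefSeq (GRCh38.p14). Of these, 41091 had 1 symbol and were used, 1801 had several and 11721 had no gene listed. Detection calls were not used here, so no background limit is known, and the number of arrays limits the precision.

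The comparison used limma 3.58.1 (R 4.3.3; constant prior, no covariates, no filter, 2 residual and 3.27 prior degrees of freedom), which was tested on simulated data. Every probe set of a member was also read from a fit over all probe sets. The members and gene lists were chosen with earlier results of these data known. Named list genes were up to 4 called genes with the largest difference, or the 2 largest where none was called, and the 5 genes most like PRMT6. Other list genes named with their values, such as members that did not pass the test, were chosen after those values were seen. Protein sequences were not used here.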

Additional observations from a re-analysis of the deposited data

How the results depend on the processing

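PRMT6 stayed below 0 and PRMT1, PRMT2, PRMT3, PRMT7 and PRMT8 above 0 under each of the alternatives that gave them a value. Scaling by 9 reference genes (3 of the 12 planned had no probe set naming 1 gene) moved the median gene to -0.23 and the share of calls that were higher to 17.6%, against 51.9% on the deposited scale. There CARM1 (-0.11), PRMT5 (-0.19) and PRMT9 (-0.21) changed sign, PRMT2 (0.26) and PRMT7 (0.27) were not called, 0 members, 7 list genes and 1338 genes rose, and 17 list genes and 6245 genes fell. With gene-specific probe sets (16782 genes, none for CARM1) PRMT2 (0.24) and PRMT6 (-0.36, adjusted p = 0.057) were not called, and 1 member, 10 list genes and 1613 genes rose and 0 members fell. Adjusted over all probe sets, PRMT6 (-0.36) and PRMT7 (0.49) were not called, 1 member and 11 list genes rose, 0 members fell, and 3649 probe sets rose and 3485 fell. With only the brighter genes (PRMT8 left out), or an intensity trend, 4 members rose, PRMT1 (0.26) and PRMT3 (0.26) being added. More genes were called there in general: 2998 of the 9887 brighter genes rose, and 3103 of all 19775 genes with the trend. On the reported processing 2459 of the 19775 rose. With the replicate block, PRMT6 (-0.36, adjusted p = 0.076) was not called, 0 members fell, and 2035 genes rose and 1937 fell, against 2459 and 2281 without it. The block moved no other call of a member; same-numbered deviations correlated at 0.052 across genes, which does not show pairing. With the mean of probe sets no count moved by over 1.5 times. The cause of these moves was not tested.

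Leaving out 1 array at a time, 154 to 1371 genes rose and 354 to 1258 fell, 0 to 8 list genes rose and 0 to 4 fell, and 0 to 1 members rose and 0 fell. A single knockout or control array is then assumed to vary like the other group. The differences ran from -0.44 to -0.28 for PRMT6, 0.40 to 0.56 for PRMT2, 0.38 to 0.61 for PRMT7, 0.19 to 0.32 for PRMT1, 0.21 to 0.31 for PRMT3, 0.016 to 0.22 for CARM1, 0.095 to 0.36 for PRMT8, -0.012 to 0.089 for PRMT5 and -0.093 to 0.12 for PRMT9.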

Other observations

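FBXO11, an F-box protein that carries PRMT9 among its older names, is not a member of the family as listed here and was looked at after its values were seen. Its brightest probe set had log2 intensities of 8.81 and 8.74 on the knockout arrays, against 9.30 and 9.41 on the control arrays, and fell by 0.58 (SE 0.09, adjusted p = 0.021 in limma over all probe sets). Its other probe sets gave -0.12 (adjusted p = 0.55) and -0.23 (adjusted p = 0.20). A value taken under the old name would therefore differ from the 0.01 of PRMT9 itself.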
